A study of Mus musculus with 96 samples.

Results

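Lateral olivocochlear neurons (LOCs) differed among themselves in how late they fired. The 25 LOCs described here were chosen by their label for the peak latency of the first action potential (AP), namely 13 short-latency neurons at 15 ms or less and 12 long-latency neurons at 35 ms or more. They come from 30 neurons labelled LOC_Delayed, of which cell_78 and cell_85 were left out by the rule and 3 lay between the limits. The whole series holds 96 libraries, namely 86 neurons of the lateral superior olive (LSO), 56 of them principal neurons (pLSOs), and 10 negative controls. All neurons were recorded in acute brainstem slices of C57BL/6J mice of both sexes in the second postnatal week, without genetic alteration or treatment. Each library was made from the cytoplasm of 1 neuron, aspirated through the patch pipette after recording, and a negative control came from a pipette that only touched the slice. No label names an animal, so each latency group counts as 1 sample, and every difference below is a description of these neurons that was not tested.

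LOCs send unmyelinated axons to the cochlea, where they end beneath the inner hair cells on the dendrites of auditory nerve fibers and modulate them through acetylcholine, GABA and peptides such as CGRP. Their delayed firing is attributed to an A-type potassium current, which activates quickly near threshold, opposes depolarization and then inactivates. The pore of such a channel is usually formed by Kv4 subunits (Kcnd genes) with KChIP and DPP proteins as auxiliary subunits, or by subunits such as Kv1.4 (Kcna4) and Kv3.4 (Kcnc4). A slow membrane, a low resting potential or inhibitory input can also delay the first AP. pLSOs, in contrast, fire at the onset of a current step and compare sound level between the ears.

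The latency labels used for the choice ran from 3.7 to 15.0 ms with a median of 8.3 ms in the short-latency neurons and from 35.8 to 90.7 ms with a median of 49.0 ms in the long-latency neurons. The neurons nearest to the limits were cell_82 at 15.0 ms and cell_77 at 35.8 ms inside, and cell_69 at 18.0 ms and cell_80 at 24.0 ms outside; the excluded cell_78 had 15.4 ms. In the methods of the study the latency was read at rheobase, the smallest current step that gave an AP. In 17 of the 25 neurons the rheobase label was 0 pA, so their latency was read without injected current, and what this does to the label was not tested. The study marks spontaneously active neurons in its plot of rheobase, but no label here names them. The pairing of a neuron's labels with its library rests on the sample name alone. For some pLSO libraries the names in a supplementary table of the study go with other values than those deposited, and for LOCs no such table was used here.

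In the full groups, the kinetics of inhibitory currents were the most separated of the labels. Spontaneous inhibitory postsynaptic currents (sIPSCs), which reflect single or few packets of glycine or GABA, decayed faster in short-latency neurons. Their decay time constant was 1.01 ms at the lowest, 2.05 ms at the median and 3.11 ms at the highest (n = 13). In long-latency neurons it was 1.91, 2.61 and 5.02 ms (n = 12). The groups overlapped, but 5 short-latency neurons lay below all long-latency neurons, and 11 of 13 lay below the long-latency median. The AUROC, a measure of rank separation, is the share of the 156 pairs of a short and a long neuron in which the short one is higher, with ties shared equally, so that 0.5 means no order. For the sIPSC decay it was 0.228, the farthest from 0.5 of the 15 labels other than latency.

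The sIPSC rise time followed the same order. It ran from 0.24 over a median of 0.50 to 1.34 ms in short-latency neurons and from 0.41 over 0.75 to 2.03 ms in long-latency neurons, with an AUROC of 0.263. Across the 28 LOCs that include the 3 neurons between the limits, Spearman's rho with latency was 0.43 for both the sIPSC rise time and decay (n = 27, 1 neuron without a value). The amplitude of the sIPSCs overlapped widely, with medians of 18.7 and 18.05 pA and an AUROC of 0.619. Among neurons with a rheobase of 0 pA, 7 short and 10 long, the AUROC was 0.114 for the decay and 0.143 for the rise time. Without cell_57 and cell_76, which lacked LOC peptides as given later, the AUROC of the decay was 0.269. For comparison, the median decay was 1.495 ms in the 54 pLSOs with a value.

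Spontaneous excitatory currents (sEPSCs) were not separated in this way. Their decay time constant had medians of 1.83 ms in short-latency and 1.915 ms in long-latency neurons, with an AUROC of 0.452. Their rise time had an AUROC of 0.397 and their amplitude one of 0.596. Amplitudes ranged widely in both groups, from 27.3 to 87.9 pA in short-latency and from 20.0 to 92.5 pA in long-latency neurons.

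**Figure D1:**
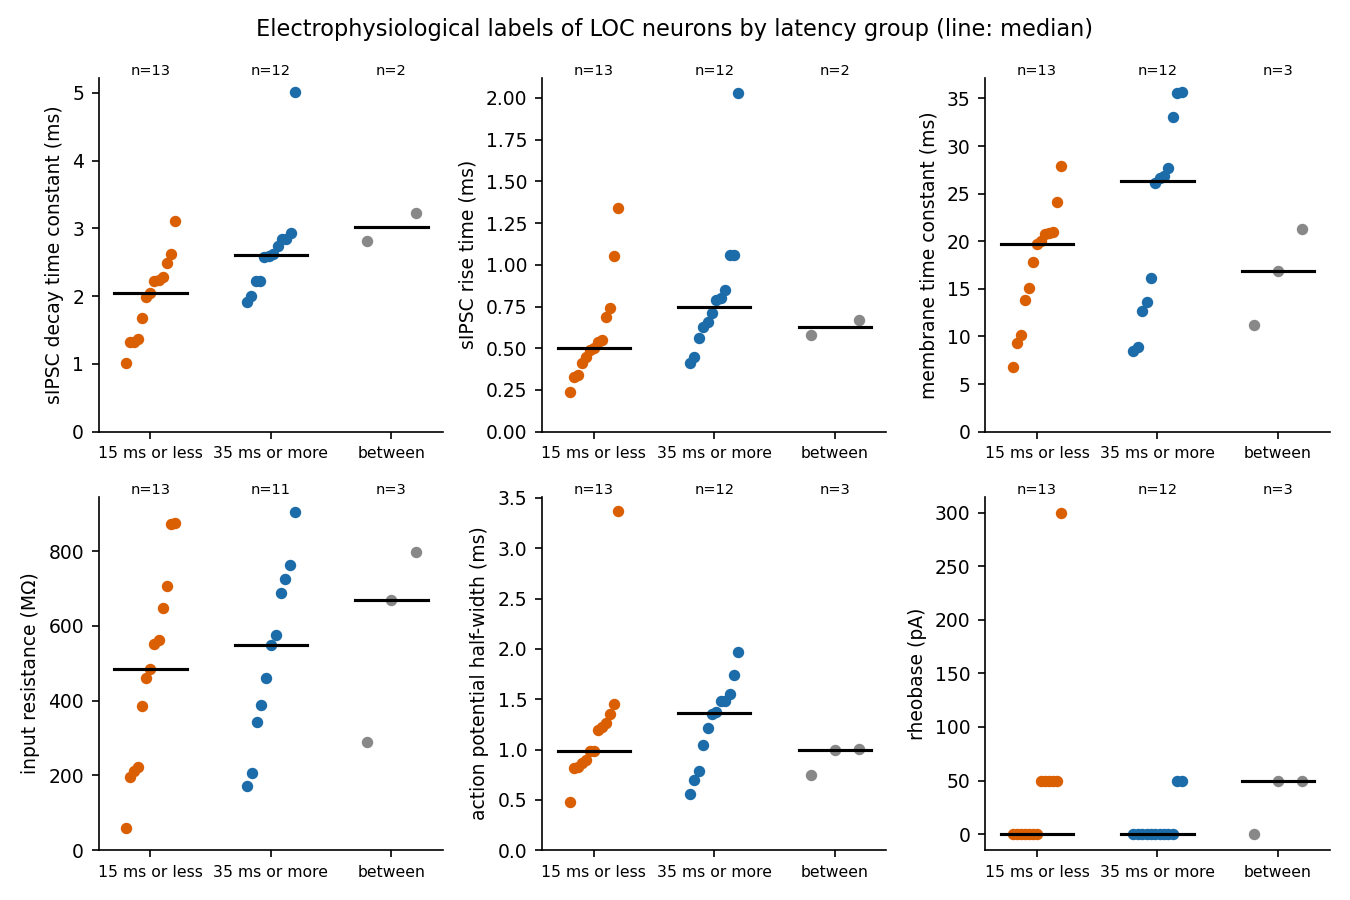
Each point is the label of 1 LOC, in ms, MΩ or pA as given on the vertical axis, with short-latency neurons (15 ms or less), long-latency neurons (35 ms or more) and the neurons between the limits side by side; lines are medians and n is the number of neurons with a value. The sIPSC decay had medians of 2.05 and 2.61 ms in the first 2 groups, whereas input resistance overlapped almost completely.

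In the full groups, the membrane time constant was less separated than the kinetics of the sIPSCs. It was 6.8, 19.7 and 27.9 ms (lowest, median, highest) in short-latency neurons and 8.5, 26.35 and 35.7 ms in long-latency neurons, with an AUROC of 0.359. Only 1 of 13 short-latency neurons exceeded the long-latency median, whereas 5 of 12 long-latency neurons lay below the short-latency median. With narrower groups of 10 ms or less (8 neurons) and 45 ms or more (7 neurons), the AUROC of the membrane time constant was 0.107 and that of input resistance 0.232, beside 0.196 for the sIPSC decay and 0.116 for the sIPSC rise time. In the full groups, input resistance had medians of 484.5 and 549.2 MΩ and an AUROC of 0.455. Capacitance had medians of 0.037 and 0.040 nF with the same AUROC. Without cell_57 and cell_76, input resistance had an AUROC of 0.488. Its median was then higher in short-latency neurons, by 2.5 MΩ.

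The AP itself was similar in height and somewhat narrower in short-latency neurons. Its half-width had medians of 0.99 and 1.36 ms (AUROC 0.362), and its amplitude medians of 99.7 and 92.9 mV (AUROC 0.558). Its threshold had medians of -28.7 and -25.8 mV (AUROC 0.365), but 5 short-latency neurons had a threshold below that of every long-latency neuron. This order turned to an AUROC of 0.629 among neurons with a rheobase of 0 pA. The sag, a sign of hyperpolarization-activated current, was small in both groups, with medians of 1.2 and 0.65 mV (AUROC 0.593). It had an AUROC of 0.436 among neurons with a rheobase of 0 pA.

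Rheobase and resting potential were labelled unevenly. A rheobase of 0 pA was given for 7 of 13 short-latency neurons (53.8%, exact Clopper-Pearson 95% interval 25.1 to 80.8%) and for 10 of 12 long-latency neurons (83.3%, 51.6 to 97.9%). These intervals, like all others here, cover counting error only. The remaining neurons had 50 pA, except for cell_57 with 300 pA. A resting potential was missing for 2 of 13 short-latency neurons (15.4%, 1.92 to 45.4%) and for 7 of 12 long-latency neurons (58.3%, 27.7 to 84.8%). All 9 neurons without it had a rheobase of 0 pA, as did 5 of the 11 short-latency and 3 of the 5 long-latency neurons with it. Where it was given, its median was -56.5 mV in 11 short-latency and -59.7 mV in 5 long-latency neurons (AUROC 0.691). Among neurons with a rheobase of 0 pA, 5 short and 3 long, the AUROC was 0.867.

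The transcripts of the 25 neurons were listed as TPM, a measure relative to gene length and to the whole library, in whole numbers, and each library of the series summed to between 999773 and 1000026. Read counts were not at hand, so depth is unknown, and a value of 0 stands for anything below 0.5 TPM. The scale of the values changed along the table, with a median level of 1028 TPM among the 161 genes considered in the first 500 rows and of 2.86 TPM among the 704 genes after row 15000. Levels are therefore compared between neurons within a gene, never between genes. Libraries of short-latency neurons held more genes. The number of genes at 1 TPM or more was 1671, 2932 and 4408 (lowest, median, highest) in short-latency neurons and 1175, 2064.5 and 3210 in long-latency neurons. The AUROC was 0.750, 10 of 13 short-latency neurons lay above the long-latency median, and Spearman's rho with latency was -0.33 over the 28 LOCs. Negative controls held 285 to 1271 genes, except for NC6 with 3104.

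**Figure D2:**
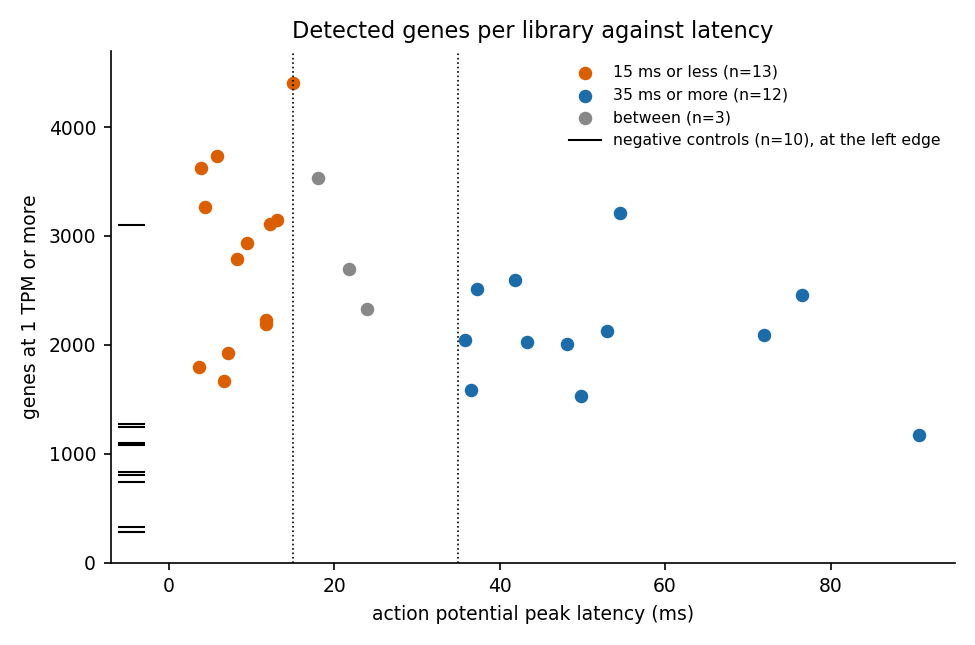
Each point is 1 LOC, with its peak latency in ms on the horizontal axis and the number of genes at 1 TPM or more in its library on the vertical axis; dotted lines are the limits of the groups, and short black lines at the left mark the 10 negative controls. The short-latency neurons reached 4408 genes, the long-latency neurons 3210.

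Nearly all neurons of both groups held LOC markers. Of the 19 genes matched from a list of LOC marker genes, which the study had derived from these libraries, short-latency neurons had 9 to 19 (median 16) and long-latency neurons 9 to 19 (median 15). Negative controls had 1 to 9 (median 4.5). Calca, which encodes CGRP, was at 0, 817 and 2766 TPM in short-latency neurons and at 349, 971 and 4484 TPM in long-latency neurons, with an AUROC of 0.429. It was also detected in 6 of the 10 negative controls and in 19 of 56 pLSOs. Ucn (urocortin) was detected in 10 of 13 and 10 of 12 neurons, as was Isl1, a transcription factor of motor and olivocochlear neurons. Gata3, a transcription factor needed by olivocochlear neurons, was detected in 12 of 13 and 7 of 12. Spp1 (osteopontin), a marker of pLSOs, was at 0 in all of them but 1 long-latency neuron with 1 TPM. However, cell_57 and cell_76, both with short latency, had Calca, Ucn and Isl1 at 0, which goes against the label, although cell_57 held Gata3 at 903 TPM and 10 of the 19 genes, as many as cell_65. For some results, values without these 2 neurons are given beside the full groups. The long-latency cell_64 had 9 of the 19 genes, with Calca at 4484 and Ucn at 254 TPM but Isl1 and Gata3 at 0. No LOC marker met the rule for a difference given below in the full groups, and the median AUROC of the 19 genes was 0.484. In the shared range of detected genes, also given below, 1 of the 19 was called higher in long-latency neurons, beside 1.88% among all genes.

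To find genes that differ with latency, 4042 genes at 1 TPM or more in at least 6 of the 25 neurons were considered. A gene was called where its AUROC was at least 0.75 or at most 0.25 and its mean log2(TPM + 1) differed by at least 1 in the same direction. By this rule 76 genes (1.88% of those considered) were called higher in short-latency neurons and 8 (0.198%) higher in long-latency neurons. Genes can meet the rule at such shares through the spread over neurons alone, so that a call by itself is no evidence of a difference between the groups. The whole distribution leaned the same way, with a median AUROC of 0.548 over all 4042 genes and 2684 of them above 0.5. When only neurons within the shared range of 1671 to 3210 detected genes were compared, 9 of each group, 71 genes were called higher in short-latency and 50 higher in long-latency neurons among 2658 considered, and the median AUROC was 0.503. That comparison was added once the counts were known. Of the 76 and 8 genes, 29 and 6 were called there too. Counts from groups of different size cannot be set against each other directly, since fewer neurons reach the same AUROC more easily. The part of the number of detected genes in the calls was not tested. Without cell_57 and cell_76 the counts were 91 and 14 (2.53% and 0.389% of 3602 considered). Of the 76 genes 58 were called there too, as were all 8.

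**Figure D3:**
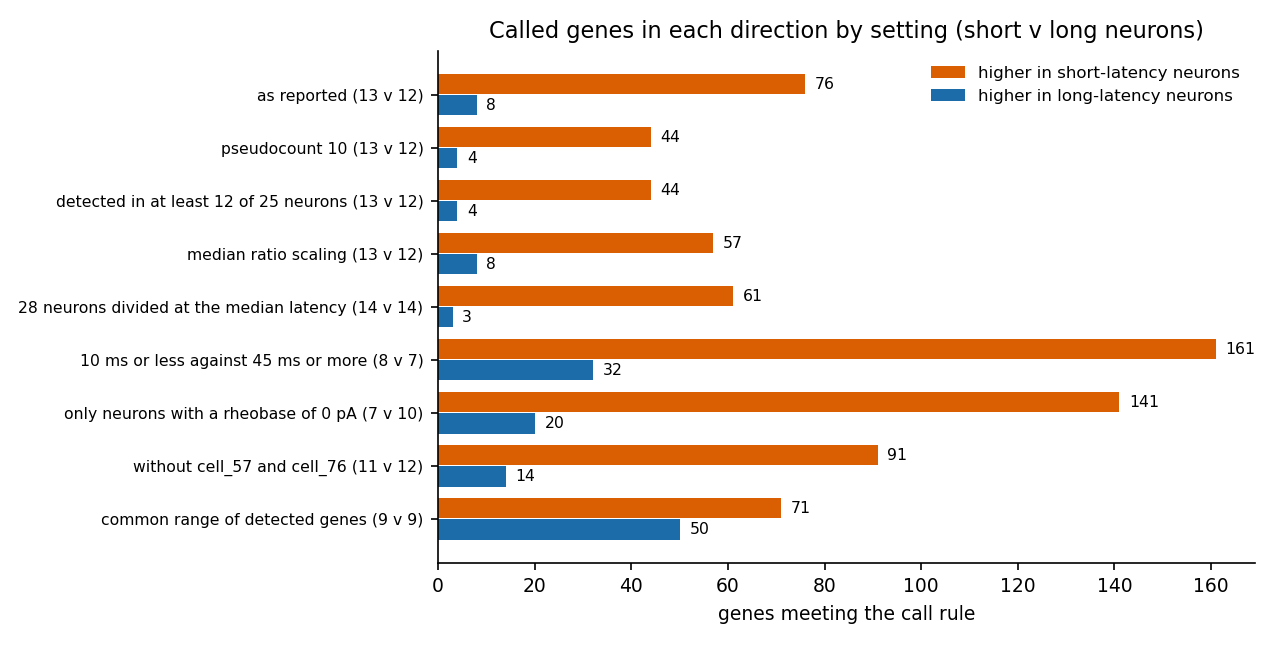
Bars give the number of genes that met the call rule in each direction, with the number of short and long neurons compared in parentheses; the top pair is the comparison as reported, with 76 and 8 genes. In the shared range of detected genes, at the bottom, the counts were 71 and 50.

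The gene with the widest separation was Zfp318 (chr17:46383731-46420920, plus strand, GRCm38), which encodes a nuclear zinc finger protein. It was detected in 10 of 13 short-latency neurons (76.9%, 46.2 to 94.96%) and in 0 of 12 long-latency neurons, which allows a share of up to 25.0%. Its level in short-latency neurons ranged from 0 over a median of 79 to 2677 TPM. It was at 0 in the 3 neurons between the limits as well. The AUROC was 0.885, and 15 of 56 pLSOs held the gene. It was called in the shared range of detected genes too.

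The other leading genes on the short-latency side, 15 in all, are given by what their proteins do, which was not used to choose them. Mapre1 (chr2:153741274-153773310, plus strand), which encodes the microtubule plus-end protein EB1, was at 0, 23 and 94 TPM in short-latency and at 0, 0 and 220 TPM in long-latency neurons, detected in 12 of 13 and 3 of 12 (AUROC 0.846). Mapt (chr11:104231390-104332090, plus strand), which encodes the axonal microtubule protein tau, was at 0, 271 and 2663 TPM against 0, 3.5 and 1071 TPM (AUROC 0.843). The groups overlapped in both genes, with the highest long-latency value of each in cell_68. For Mapre1 this value lay above all short-latency neurons. For Mapt 2 short-latency neurons lay above all long-latency neurons. Actr10, a subunit of the dynactin complex that links dynein to its cargo, had medians of 228 and 0 TPM and was not called in the shared range of detected genes. Rdx (radixin), which ties actin to the membrane, was detected in 9 of 13 and 1 of 12 neurons, at up to 27 TPM and 1 TPM, and was not called in the shared range either. It was also detected in 4 of the 10 negative controls, the most of the 15 leading genes.

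Snx3 and Snx6, sorting nexins of the endosome, were both on this side. Snx3 was detected in all 13 short-latency neurons with a median of 593 TPM and in 6 of 12 long-latency neurons with a median of 1.5 TPM (AUROC 0.814). Snx6 was found in 8 of 13 against 0 of 12. Ergic1, a protein of the intermediate compartment between endoplasmic reticulum and Golgi, was likewise found in 8 of 13 against 0 of 12. Neither of the latter 2 was detected widely enough to be considered in the shared range.

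At the surface and the synapse, Nptn (neuroplastin), a cell adhesion molecule and partner of calcium pumps, had medians of 50 and 0.5 TPM (AUROC 0.837). Ppfia4 (liprin-α4), a scaffold of the active zone family, was detected in 10 of 13 and 4 of 12 neurons. Fgf12, an intracellular FGF homologous factor that binds voltage-gated sodium channels and shifts their inactivation, was at 0, 21 and 316 TPM in short-latency and at 0, 0 and 776 TPM in long-latency neurons. It was detected in 11 of 13 and 3 of 12 (AUROC 0.814), and the highest of all 25 values was in a long-latency neuron. It was not called in the shared range. With the 28 neurons divided at their median latency, neither Fgf12 nor Ppfia4 was called, unlike the other leading genes on this side. The remaining leading genes were Tceal9 (AUROC 0.830), the chromatin protein gene Cbx1 (0.824), the mitophagy receptor gene Bnip3 (0.824) and Ndufa5 (0.824), a subunit of respiratory complex I.

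**Figure D4:**
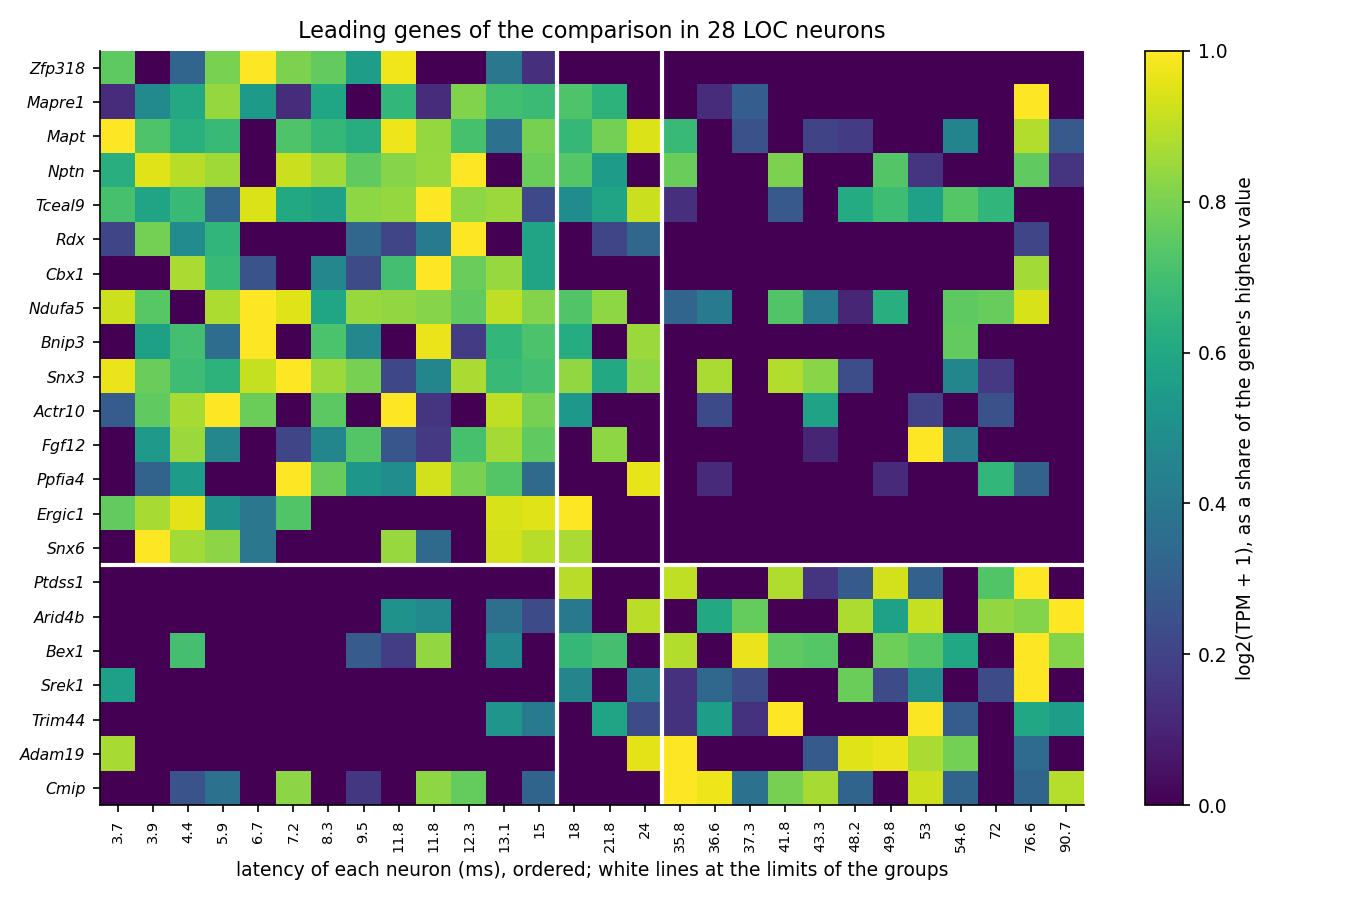
Columns are the 28 LOCs in order of latency (ms), and rows are the 15 leading genes higher in short-latency neurons above 7 of the 8 genes higher in long-latency neurons; color gives log2(TPM + 1) as a share of each gene's highest value, and white lines mark the limits. The genes were picked from 25 of these neurons, so the pattern itself is no test; Zfp318 is dark in all 12 long-latency neurons and Ptdss1 in all 13 short-latency neurons.

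On the long-latency side, Ptdss1 (chr13:66932830-66998401, plus strand), which encodes a phosphatidylserine synthase of the endoplasmic reticulum, was detected in 8 of 12 long-latency neurons (66.7%, 34.9 to 90.1%). In short-latency neurons it was detected in 0 of 13, which allows a share of up to 23.1%. Its level in long-latency neurons ranged from 0 over a median of 8 to 1591 TPM (AUROC 0.167). It passed the filter on detection through the long-latency group alone, as Zfp318, Snx6 and Ergic1 did through the short-latency group. The gene was called in the shared range too, as were Bex1, Srek1, Trim44 and Adam19. With the 28 neurons divided at their median latency, Trim44, Adam19 and Arid4b were called, but Ptdss1, Bex1, Srek1 and Cmip were not. Ptdss1 was also detected in 23 of 56 pLSOs and in 4 of the 10 negative controls.

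Bex1, a small adaptor protein of neurons, was detected in 5 of 13 and 9 of 12 (medians 0 and 16.5 TPM). Arid4b, a chromatin protein, had medians of 0 and 28.5 TPM and values of up to 11 and 125 TPM.

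The splicing factor gene Srek1 was detected in 1 of 13 and 8 of 12 neurons, and Trim44 in 2 of 13 and 8 of 12. Adam19, a membrane metalloprotease, was detected in 1 of 13 and 7 of 12, with 853 TPM in its only short-latency neuron. Cmip was the gene at the limit of the rule, with an AUROC of 0.250. Neither Arid4b nor Cmip was called in the shared range.

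The A-type potassium current list gave no called gene. Of its 12 members, only Kcnd2, Kcnc4 and Dpp6 were found in enough neurons to be considered, with a median AUROC of 0.484 beside 0.548 over all genes. Kcnd2 (Kv4.2) was detected in 3 of 13 and 3 of 12 neurons, with 0 as the median and 7 and 50 TPM as the highest values (AUROC 0.484). Kcnc4 (Kv3.4) was detected in 6 of 13 and 3 of 12, with highest values of 72 and 2 TPM (AUROC 0.651). Dpp6, an auxiliary subunit of Kv4 channels, was detected in 6 of 13 and 6 of 12 (AUROC 0.474). Kcnd3, Kcnip1 and Kcnip4 were each detected in a single short-latency neuron, Dpp10 in 1 short-latency and 2 long-latency neurons, and Kcnd1, Kcna4, Kcnip2 and Kcnip3 were at 0 in all 25. For the members at or near 0 a difference was not detectable with these values, and none of this shows that the groups had the same channels.

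The other lists for ion channels and their partners gave 1 called gene in the full groups, Fgf12, which encodes a partner of sodium channels. Of the other Kv channels 3 of 37 were considered and none was called, with Kcna1 (Kv1.1) in 7 of 13 and 5 of 12 neurons. Of 19 genes for sodium channels and their partners, 11 were considered, and Fgf12 was the called one, beside 1.88% among all genes. In the shared range 10 were considered, and 1 was called in each direction, beside 2.67% and 1.88% among all genes. Scn1a and Scn2a, pore-forming subunits, were detected in 11 of 13 short-latency neurons each and in 8 and 6 of 12 long-latency neurons (AUROC 0.70 and 0.69), short of the rule. Scn9a, another pore-forming subunit, had the opposite order with 1 of 13 and 6 of 12 (AUROC 0.29), as had the leak channel gene Nalcn with 4 and 6 neurons (AUROC 0.37). Of 16 calcium channel genes 8 were considered and none called, and Cacna1g (Cav3.1, a low-threshold channel) was found in 2 of 13 and 6 of 12 neurons (AUROC 0.31). Of 15 HCN and TRP channel genes 2 were considered and none called.

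Receptors for inhibitory transmitters were of interest beside the sIPSCs. Of 24 genes for GABA and glycine receptors and their chloride transporters, 10 were considered and 1 was called, beside 1.88% among all genes. This was Slc12a5, which encodes the chloride extruder KCC2, at 0, 121 and 1900 TPM in short-latency and at 0, 0 and 268 TPM in long-latency neurons. It was detected in 11 of 13 and 4 of 12 (AUROC 0.795) and was not called in the shared range of detected genes. No receptor subunit met the rule in the full groups. In the shared range 8 of the list were considered, and 1 was called higher in long-latency neurons, beside 1.88% among all genes. For glycine receptors, Glra1 was detected in 6 of 13 and 3 of 12 neurons (AUROC 0.60), Glra2 in 5 and 4 (0.55), and Glrb in 8 and 8 (0.38). Of 33 glutamate receptor genes 11 were considered and none was called.

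In the full groups, the lists for release and for transmitters had no called member. In the shared range of detected genes, 1 of 20 release genes and 1 of 16 transmitter genes were called in each direction. Among all genes 2.67% and 1.88% were called there. Rph3a (rabphilin-3A), a vesicle protein outside the list, is named here after its values were seen. It was called with 11 of 13 and 4 of 12 neurons (AUROC 0.760) but not in the shared range. It was also detected in 4 of the 10 negative controls. Of 26 genes of the release machinery 22 were considered, with a median AUROC of 0.574, and Unc13a, which primes vesicles, came closest with 10 of 13 and 4 of 12 neurons (AUROC 0.74). Of 29 genes for LOC transmitters and peptides 17 were considered, with a median AUROC of 0.484. Lists for ion pumps (9 of 15 considered), axon and initial segment (8 of 9) and activity and stress (12 of 24) had no called member and medians of 0.519, 0.562 and 0.470. In the shared range, however, 1 of 8 ion pump genes considered was called higher in long-latency neurons, beside 1.88% among all genes.

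Genes of energy metabolism and translation were called on the short-latency side, where libraries held more genes. Of 97 genes for oxidative phosphorylation 85 were considered, and 6 were called higher in short-latency neurons, among them Ndufa4, Ndufa5, Ndufa6, Ndufa7 and Cox7b. Among all genes 1.88% were called in this direction. None of the list was called higher in long-latency neurons, and its median AUROC was 0.603. Without cell_57 and cell_76, Ndufa6 (AUROC 0.746) and Cox7b (0.727) were no longer called. Ndufa4 was at 5, 94 and 254 TPM in short-latency and at 0, 44 and 198 TPM in long-latency neurons. In the shared range of detected genes 81 of this list were considered. Their median AUROC was 0.519, with 2 genes called higher in short-latency and 1 in long-latency neurons. Among all genes considered there, 2.67% and 1.88% were called in these directions. Of 88 ribosomal protein genes 83 were considered and 4 called, among them Rps2, Rps7 and Rpl39, all higher in short-latency neurons, beside 1.88% among all genes, with a median AUROC of 0.551. Of 81 considered in the shared range, 0 were called higher in short-latency and 3 in long-latency neurons, beside 2.67% and 1.88% among all genes. The median AUROC of the list there was 0.494.

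Markers of other cells were present in both groups. Of 9 microglia markers 6 were considered and 1 was called higher in short-latency neurons. The share called among all genes was 1.88% in this direction. The summed level of the list was 1, 383 and 3084 TPM (lowest, median, highest) in short-latency and 0, 5.5 and 2539 TPM in long-latency neurons, and 11 of 13 short-latency neurons lay above the long-latency median. Its AUROC was 0.811 and Spearman's rho with latency -0.55 over the 28 LOCs, so that it was farther from 0.5 than any electrophysiological label in the full groups. In the negative controls it was 0 to 7515 TPM with a median of 8 TPM, and the defining marker Tmem119 was at 0 in all 25. Summed levels ranged from 0 to 15134 and from 0 to 23902 TPM for 9 astrocyte markers, of which Aldh1l1 and Gja1 were at 0 in all 25. They ranged from 54 to 25844 and from 1 to 5656 TPM for 12 oligodendrocyte markers, of which Pdgfra was at 0 in all 25, and from 0 to 575 and from 0 to 84 TPM for 9 vascular and blood markers, of which Cldn5, Flt1, Kdr and Ly6c1 were at 0 in all 25. Of the latter 3 lists 7, 6 and 3 genes were considered and none was called. In the shared range of detected genes, 1 of 4 astrocyte markers was called higher in long-latency neurons. There, 1 of 5 oligodendrocyte markers was called in each direction, and 1 of 2 microglia markers higher in short-latency neurons. Among all genes there, 2.67% were called higher in short-latency and 1.88% in long-latency neurons. The part of these markers in the other results was not tested.

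Over all 28 LOCs, the genes among the 4042 with a level that followed latency most closely included Zfp318 (Spearman's rho -0.70), Ergic1 (-0.61), Snx3 (-0.60) and Anapc16 (-0.60) in the falling direction. In the rising direction these were Arid4b (0.63), Ptdss1 (0.59), Trim44 (0.55), Kansl3 (0.53) and Tmeff2 (0.52). Of these 28 neurons 25 are those compared above, so the values repeat that comparison in part and are a description only.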

How the data were processed

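Single LSO neurons were recorded, and libraries were made from their cytoplasm by a modified Smart-seq2 procedure. The submitters' processing notes name FastQC, Trim Galore 0.4.2, STAR, Picard 1.115, featureCounts and the mm10 build. The score values, as deposited by the authors, are TPM rounded to whole numbers for 38887 genes. Gene names (37570 matched) and positions came from Gencode on GRCm38, the same build. Electrophysiological values are the sample labels.

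The members and gene lists were chosen with earlier results of these data known. Genes at 1 TPM or more in at least 6 of 25 neurons were compared by AUROC and by mean log2(TPM + 1), pseudocount 1. Named were up to 15 called genes per direction, considered members of the A-type list, called members of other lists, 5 label checks, and the 5 genes per direction closest to latency; unnamed gene models were counted only. Some genes that this rule names, or that the lists hold, are counted but not reported here. Other list members were named after their values were seen. Shares have exact 95% intervals, and 0 of n neurons a limit of 3 over n. Scripts (Python 3.11.15, SciPy 1.17.1) were tested on simulated data. No test was made, since neurons are not replicates. Alternatives varied the pseudocount, the filter, the detection limit, scaling by median ratios over 110 genes, the latency limits and the neurons included.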

Additional observations from a re-analysis of the deposited data

Results flagged for a closer look

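Among the 10 negative controls, NC6 stood apart with 3104 detected genes, where the next had 1271. The gap was 0.650 of the whole range, above Dixon's 95% critical value of 0.466, which chance passes in about 1 of 20 groups. Groups of more than 10 neurons were not examined in this way.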

How the results depend on the processing

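The counts of called genes changed with most choices. The reported counts were 76 and 8 genes, higher in short-latency and in long-latency neurons (1.88% and 0.198% of 4042 considered). With a pseudocount of 10 they were 44 and 4 (1.09% and 0.099% of 4042). Among genes detected in at least 12 neurons they were 44 and 4 (3.11% and 0.283% of 1413). Limits of 10 and 45 ms gave 161 and 32 (7.66% and 1.52% of 2101). Neurons with a rheobase of 0 pA gave 141 and 20 (5.88% and 0.834% of 2397). Dividing the 28 neurons at their median latency gave 61 and 3 (1.34% and 0.066% of 4563). Leaving out 1 neuron at a time gave 68 to 124 and 6 to 11, the highest without cell_59. Of the alternatives chosen after seeing the data, the shared range of detected genes gave 71 and 50 (2.67% and 1.88% of 2658). The comparison without cell_57 and cell_76 gave 91 and 14 (2.53% and 0.389% of 3602). That without neurons below the second highest negative control gave 68 and 10 (1.70% and 0.251% of 3991). Without neurons below the highest negative control, only 6 short and 1 long neuron were left, the counts were 265 and 253, and 5 of the named genes changed sign, namely Tceal9 (-1.10), Ndufa5 (-0.64), Bnip3 (-1.29), Arid4b (0.69) and Ndufa4 (-1.01, all as differences of mean log2). A single long neuron decided these values. The difference of median sag was -0.1 mV among neurons with a rheobase of 0 pA. All other differences of electrophysiological labels and detected genes moved by less than 1 SD over neurons, and the counts under the other alternatives stayed within 1.5 times. Unknown depth limits every value near 0 TPM. No paired analysis was possible because the result comes from no test.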

Other observations

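The 2 neurons left out by the rule had latencies of 15.4 ms (cell_78) and 50.1 ms (cell_85), sIPSC decay time constants of 2.39 and 2.85 ms, and 2052 and 2784 detected genes. The 3 neurons between the limits held 3530, 2694 and 2332 detected genes at latencies of 18.0, 21.8 and 24.0 ms, and the sIPSC decay of the first 2 was 2.81 and 3.23 ms, above the median of either latency group. Gfap, an astrocyte marker chosen for mention after its values were seen, was detected in 6 of 13 short-latency and 0 of 12 long-latency neurons, which allows a share of up to 25.0%. It was also detected in 4 of the 10 negative controls, and other members of the astrocyte list had the opposite order, with AUROCs of 0.378 for S100b and 0.433 for Aldoc.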
